A study of Mus musculus with 43 samples.

Results

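The cytochrome P450 genes of mouse lung were followed across 7 groups of mice given saline or house dust mite. The genes were those whose symbol has the form of a numbered P450 gene, with at least 1 CPM (counts-per-million) in at least 5 of 43 libraries, and with Cyp2f2 and Cyp26b1 left out by name. Of 24475 genes in the count table, 94 had such a symbol, 2 were left out by name, 62 lay below the level and 30 remained. All 30 passed the filter on low counts and were tested. The members just inside the level were Cyp2b19 with 6 libraries at 1 CPM or more, Cyp2c40 with 7 and Cyp2b13 with 8. Those just outside were Cyp21a1 with 4 libraries, Cyp2c23 with 3 and Cyp46a1 with 2. Cyp2b13 and Cyp2b19 would not have reached the level without the saline libraries, so that lower values after mite exposure were partly fixed by their selection. Cyp2c40 reached the level in mite-exposed libraries alone, and its higher values there were partly fixed in the same way.

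Cytochromes P450 are heme enzymes that insert an oxygen atom into a substrate, taking electrons from the reductase Por in the endoplasmic reticulum or from a ferredoxin in mitochondria. The families CYP1, CYP2 and CYP3 mainly oxidise foreign compounds, CYP4 enzymes hydroxylate fatty acids and eicosanoids, and further families act on sterols, bile acids, steroid hormones and vitamin D. In lung, the non-ciliated club cells of the airways are known as a rich source of these enzymes.

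Whole lung RNA was sequenced from female mice on a hybrid 129S6/C57BL/6 background, with an age given as 8 to 12 weeks and not said to be that at the start or at the end of exposure. The mice used to assess antibodies carried human sequence in place of mouse Il4, Il33 and the ectodomain of Il4ra, and the labels do not say separately whether the saline and HDM groups did. Extract of house dust mite (HDM) was applied intranasally on 3 days of each week. The duration of saline and the start of each antibody are not stated per sample. The design text gives exposures of 4, 15 and 19 weeks and the sample labels 11 and 19 weeks, and the groups follow the labels. They were saline (n = 5), HDM for 11 weeks (n = 6) and HDM for 19 weeks (n = 7). A further 4 groups had HDM for 19 weeks with an isotype control antibody (isotype, n = 7), with itepekimab against IL-33 and isotype (anti-IL-33, n = 6), with dupilumab against IL-4Rα and isotype (anti-IL-4Rα, n = 7), or with itepekimab and dupilumab (the combination, n = 5). The p-values rest on the spread between mice within groups, estimated over all groups together and not only over those compared. In whole tissue, fewer cells of a type and less RNA per cell cannot be told apart.

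Total counts ran from 11.9 to 26.7 M per library. Libraries differed in their GC slope, which is how a library's log2 expression, set against the mean of all libraries, changed per 10 percentage points of transcript GC content. The mean slope ran from -0.592 in saline to 0.32 in the combination, and 9 libraries above 0.75, called steep here, were 1 of HDM at 19 weeks, 2 of anti-IL-33, 3 of anti-IL-4Rα and 3 of the combination. Fits without the steep libraries, given below, kept only replicates 2 and 3 of the combination, so a lost call there comes with fewer mice. Saline replicate 3 stood apart by markers of squamous epithelium and fat, with Krt13 at 5280 CPM and Adipoq at 165 CPM. The 8 alveolar type 2 markers summed to at least 11700 CPM in every group's lowest library.

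Per kilobase of transcript, Cyp4b1 had the highest mean level over all libraries, 73.2 CPM per kb. Cyp2b10 followed at 38, Cyp2s1 at 21.4, Cyp4f18 at 18.7, Cyp4v3 at 14.7, Cyp4f16 at 12.4, Cyp4f13 at 10.2 and Cyp2a5 at 7.37 CPM per kb. Cyp2b19 was the lowest at 0.125. These 8 were fatty acid hydroxylases of the CYP4 family and xenobiotic CYP2 enzymes. The order differed in saline, where Cyp4b1, Cyp2b10 and Cyp2s1 were followed by Cyp2e1 (15.2), Cyp4v3 (13.8), Cyp2d22 (12.7), the sterol enzyme Cyp27a1 (10.8) and Cyp2a5 (9.64 CPM per kb). The place of Cyp2e1 rested on saline replicate 3, at 90.5 CPM, with the other saline mice at 9.01 to 18.5 CPM.

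Most P450 genes that changed after mite exposure fell. At 11 weeks, 13 of the 30 genes were lower than in saline and 3 were higher (edgeR, adjusted p under 0.05), where 6.74% of all 15979 genes tested were lower and 8.65% higher. At 19 weeks 16 were lower and 3 higher, against 15.6% and 19.2% of all genes. With isotype 17 were lower and 2 higher than in saline, against 12.4% and 13% of all genes. The shares of members that were lower, 43.3%, 53.3% and 56.7%, lay above these backgrounds, and the shares that were higher, 10%, 10% and 6.67%, lay near or below them.

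Without Cyp2b13 and Cyp2b19, 11 of 28 were lower at 11 weeks, 14 at 19 weeks and 15 with isotype. Over the 30 genes the log2 fold change had a median of -1.03, -0.98 and -0.98, beside 0.00, 0.01 and 0.01 for all genes. Without Cyp2b13 and Cyp2b19 these medians were -0.89, -0.87 and -0.85. The 3 comparisons share the saline mice. The 13 genes lower in all 3 were Cyp2b10, Cyp2b13, Cyp2b19, Cyp2d22, Cyp2e1, Cyp2s1, Cyp2ab1, Cyp2j9, Cyp3a13, Cyp4b1, Cyp4f15, Cyp27a1 and Cyp39a1. Cyp7b1 and Cyp11a1 were higher in all 3, and 10 genes were called in none. The other higher gene at 11 and at 19 weeks was Cyp2c40, whose rise was partly fixed by its selection.

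**Figure D1:**
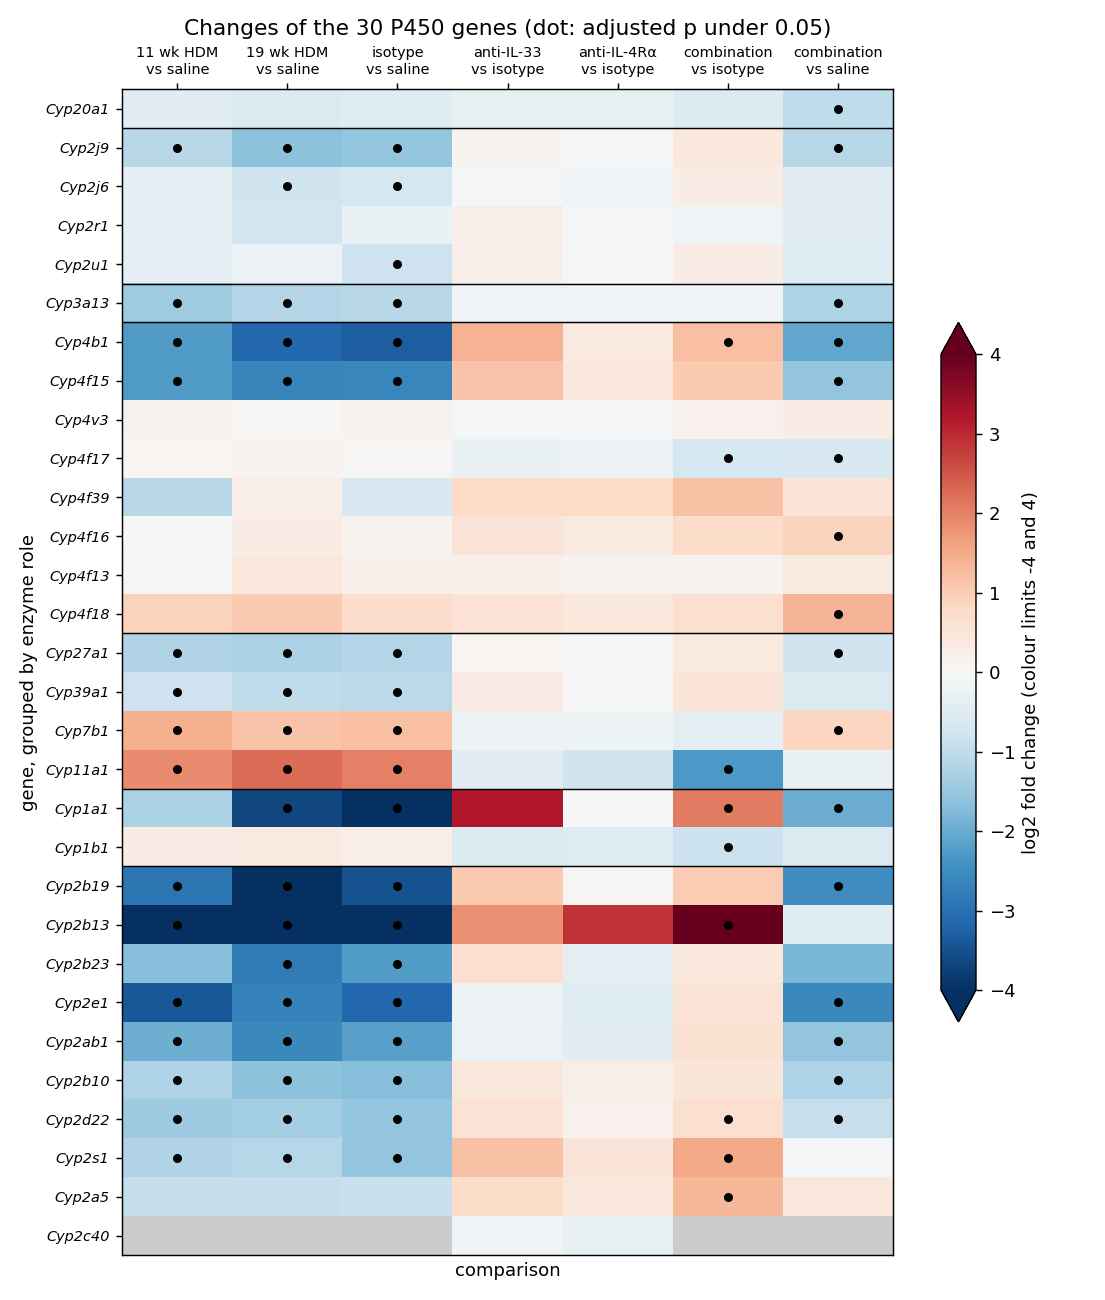
Log2 fold change of the 30 P450 genes (rows, grouped by enzyme role) in 7 comparisons (columns), from blue at -4 to red at 4, with a dot where the edgeR adjusted p was under 0.05. Grey cells are those of Cyp2c40 against groups with 0 counts. The 3 columns of mite exposure against saline are mostly blue, and the anti-IL-33 and anti-IL-4Rα columns hold no dot.

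The CYP1 family has 2 members here, both known targets of the aryl hydrocarbon receptor AHR. Cyp1a1 (Gene ID 13076, chromosome 9, 57687928 to 57703824, mm10) oxidises polycyclic aromatic hydrocarbons, as does Cyp1b1 (Gene ID 13078, chromosome 17, 79706940 to 79715061). The 250 bases before their start sites are shown because one of these AHR targets was called higher and the other lower with the combination than with isotype. Neither call was stable, being lost in 10 and 7 of 12 fits that each left out 1 mouse. Capitals mark the AHR core motif GCGTG, which reads CACGC where it lies on the strand opposite to the gene.
Cyp1a1, chr9:57697363-57697612, plus strand: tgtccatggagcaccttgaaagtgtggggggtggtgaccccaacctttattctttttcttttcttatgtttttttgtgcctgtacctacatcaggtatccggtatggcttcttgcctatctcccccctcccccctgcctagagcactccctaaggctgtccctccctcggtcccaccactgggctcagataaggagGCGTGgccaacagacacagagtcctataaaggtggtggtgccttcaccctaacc
Cyp1b1, chr17:79715062-79715311, minus strand: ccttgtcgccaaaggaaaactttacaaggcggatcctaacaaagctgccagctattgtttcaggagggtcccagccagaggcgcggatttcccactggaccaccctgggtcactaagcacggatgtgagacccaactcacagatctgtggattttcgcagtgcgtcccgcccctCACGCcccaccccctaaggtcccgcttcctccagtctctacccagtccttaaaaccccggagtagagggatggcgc
The sequences are those of RefSeq (GRCm38.p6), 5′ to 3′ on the strand of the gene. The match began 54 bases before the start site of Cyp1a1 and 76 bases before that of Cyp1b1. On either strand the motif occurred in 28.2% of all 32851 promoter windows of this length, and in 9 of 26 windows (34.6%) of the 25 members found in the table.

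Cyp1a1 was at 4.56, 6.17, 5.78, 7.04 and 9.34 CPM in the saline mice. At 19 weeks it ran from 0.224 to 1.22 CPM with a median of 0.468, and all 7 mice lay below all 5 saline mice. The log2 fold change was -3.63 (SE 0.72, adjusted p = 0.000179). At 11 weeks, from 0.372 to 5.15 CPM with a median of 3.24, the ranges overlapped and the difference did not pass (-1.26, SE 0.69, adjusted p = 0.252). Isotype mice ran from 0 to 1.46 CPM with a median of 0.237, all below saline (-4.04, SE 0.73, adjusted p = 5.65e-05). Without isotype replicate 9, the highest of them, the difference was -4.92.

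With the combination Cyp1a1 was at 0.466, 0.599, 3.29, 1.46 and 2.4 CPM, overlapping the isotype mice, with all 5 above the isotype mean and below every saline mouse. The difference from isotype was 2.06 (SE 0.73, adjusted p = 0.044). That call was lost in 10 of 12 fits that each left out 1 mouse, that is without any isotype mouse but replicate 9 and without any combination mouse but replicate 2 (highest adjusted p = 0.118). Without isotype replicate 9 the difference was 2.94. It was also lost in 4 of 9 other settings, where the adjusted p ran from 0.0182 to 0.0924.

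With anti-IL-33 alone Cyp1a1 ran from 0.074 to 9.89 CPM with a median of 1.39. Replicates 2 and 3 lay at 9.89 and 8.5 CPM, and the group overlapped both saline and isotype. The difference from isotype, 3.21 (SE 0.71, adjusted p = 0.246), did not pass. It passed in 1 of 8 other settings, limma voom with sample weights, and the adjusted p ran from 0.00153 to 0.222 over them. It also passed without isotype replicate 9 or anti-IL-33 replicate 7 among 13 fits without 1 mouse, where the adjusted p reached 0.399.

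Cyp1b1 did not pass at 19 weeks. It was at 22.9, 12.5, 16, 14.5 and 11.8 CPM in saline and ran from 12.9 to 28.2 CPM with a median of 20.8 at 19 weeks (0.35, SE 0.28, adjusted p = 0.332). With the combination it was at 12.6, 15.6, 7.45, 5.04 and 11.5 CPM, against 10 to 27.5 CPM with a median of 18.3 with isotype. All 5 combination mice were below the isotype mean with overlapping ranges, and the difference was -0.86 (SE 0.29, adjusted p = 0.0379). Offsets for GC content and length gave -0.25, over the 9 settings the adjusted p ran from 0.0192 to 0.537, and the call was lost without isotype replicate 1, 3 or 8 and without combination replicate 1, 3, 5 or 8. Steep libraries had a median of 8.88 CPM and the 29 other mite-exposed libraries 17.3 CPM.

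Of 13 genes of xenobiotic receptors and their targets 12 were tested. At 11 weeks 3 were lower and 1 higher, at 19 weeks 2 and 1, and with isotype 4 and 1. Of all genes, 6.74%, 15.6% and 12.4% were lower in these comparisons and 8.65%, 19.2% and 13% higher. Nqo1, a quinone reductase, differed by -1.47 at 19 weeks (adjusted p = 0.00109) and Ahrr, the AHR repressor, by -1.46 (adjusted p = 0.0263). The difference of Ahr itself was -0.73 and did not pass (adjusted p = 0.103). Vdr, the vitamin D receptor, was the gene that rose (1.22). With the combination 3 were higher than with isotype and 0 lower, against 12.6% and 6.32% of all genes. The 3 were Rara, Rxra and Nr1h3, nuclear receptors for retinoids and oxysterols.

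The 10 xenobiotic CYP2 genes were mostly lower after mite exposure. At 11 weeks 7 were lower and 1 higher, at 19 weeks 8 and 1, and with isotype 8 and 0. Their median log2 fold changes were -1.59, -2.11 and -1.94. Without Cyp2b13 and Cyp2b19, members through their saline values, 5, 6 and 6 of 8 were lower, with medians of -1.34, -1.52 and -1.63.

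**Figure D2:**
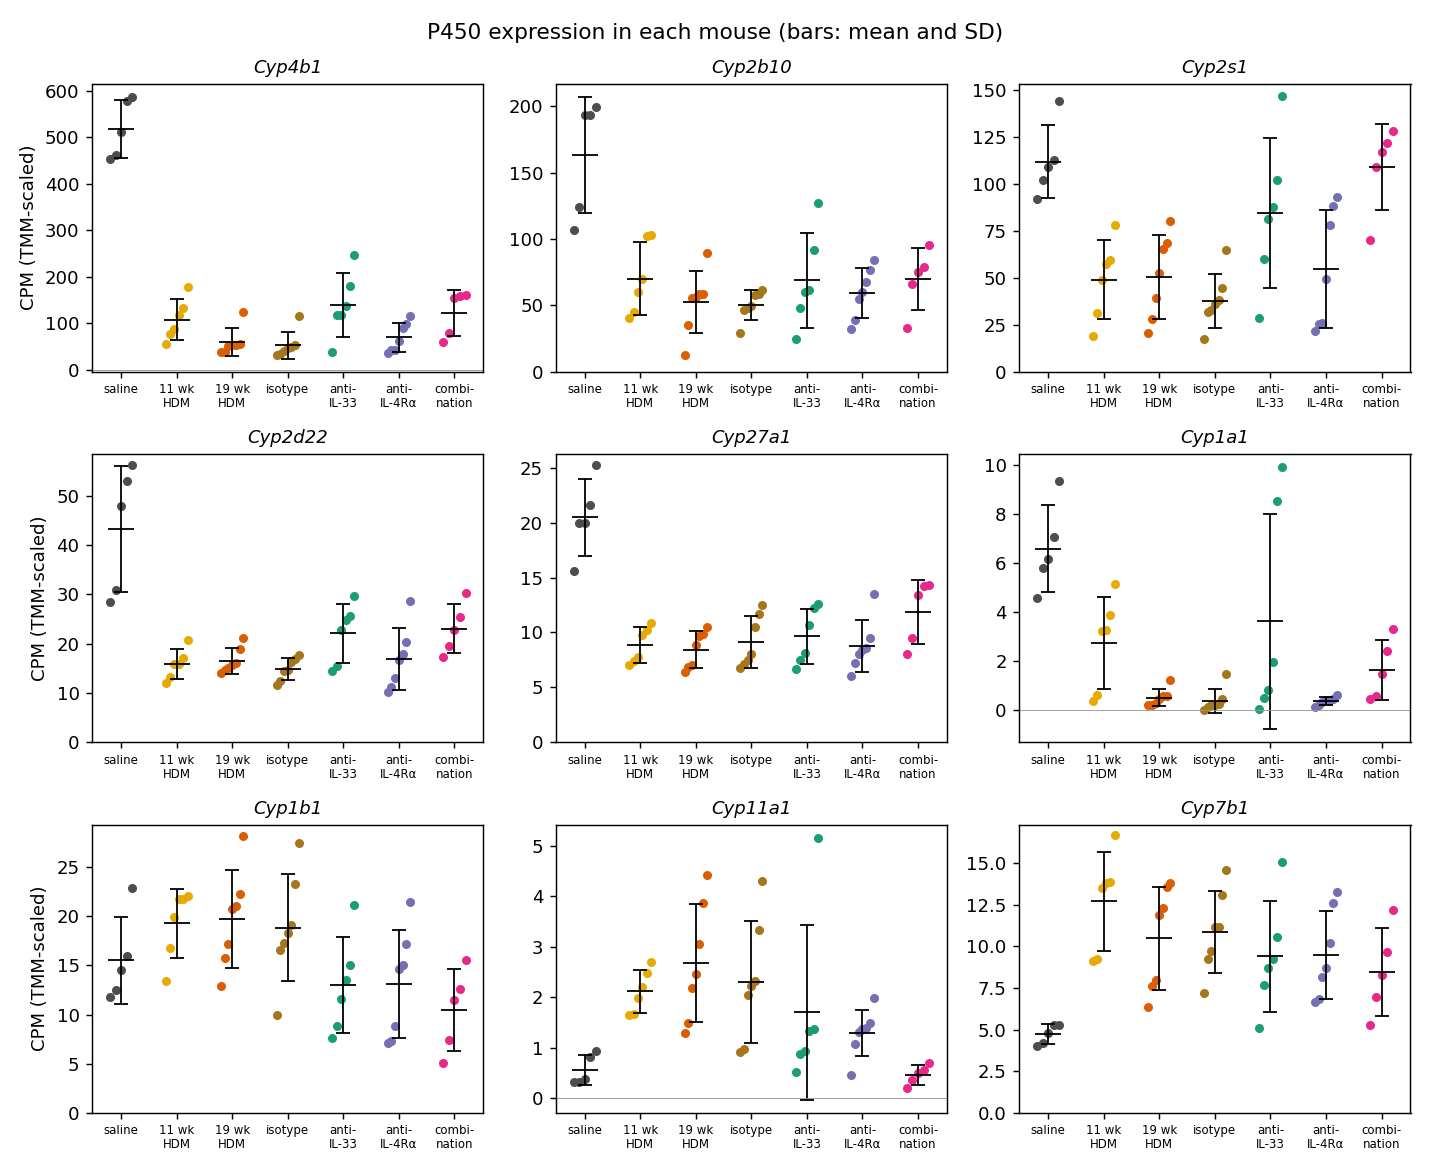
Expression of 9 P450 genes in TMM-scaled CPM, with a dot per mouse in each of the 7 groups, a horizontal mark for the mean and bars for the SD. All saline mice lie above all mice of 19 weeks of HDM for Cyp4b1, Cyp2b10, Cyp2s1, Cyp2d22, Cyp27a1 and Cyp1a1, and below them for Cyp11a1 and Cyp7b1.

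Cyp2b10 (Gene ID 13088, chromosome 7, 25897658 to 25926624) is best known for its induction through the receptor CAR. It was at 193, 193, 124, 199 and 107 CPM in saline. At 19 weeks it ran from 12.9 to 89.2 CPM with a median of 56.2, without overlap, and the log2 fold change was -1.64 (SE 0.34, adjusted p = 0.000249). The combination mice, at 32.6, 79, 66, 95.4 and 75.2 CPM, were all below saline (-1.23, SE 0.37, adjusted p = 0.00774) and did not pass against isotype (0.47, SE 0.34, adjusted p = 0.279). The call against saline was lost without the steep libraries (-1.18) or when the GC slope was a covariate (-0.91). Over the 9 settings the adjusted p ran from 0.00291 to 0.125.

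Cyp2s1 (Gene ID 74134, chromosome 7, 25802469 to 25816525), an enzyme of airway and other epithelia, was at 102, 109, 144, 113 and 91.9 CPM in saline. At 19 weeks it ran from 20.4 to 80.2 CPM with a median of 52.4, all below saline (-1.15, SE 0.37, adjusted p = 0.0153). At 11 weeks the difference (-1.19, SE 0.39, adjusted p = 0.0291) was lost without saline replicate 3 and without replicate 3 or 9 of that group (adjusted p up to 0.0761).

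The combination mice had Cyp2s1 at 109, 117, 69.9, 122 and 128 CPM, and the isotype mice ran from 17.3 to 64.6 CPM with a median of 36. All 5 lay above all 7, replicate 3 being the lowest, and the difference was 1.52 (SE 0.37, adjusted p = 0.0118). Against saline it was -0.04 (SE 0.40, adjusted p = 0.939), with overlapping ranges. The call against isotype was kept in all 12 fits without 1 mouse and in 8 of 9 settings, with adjusted p from 0.00148 to 0.0722, the last without the steep libraries. The difference there was 1.30. Cyp2s1 had a median of 92.9 CPM in steep libraries and 44.4 in the other mite-exposed ones.

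Cyp2d22 (Gene ID 56448, chromosome 15, 82370527 to 82380260), a relative of the human drug-metabolising enzyme CYP2D6, was at 28.4, 48, 31, 56.2 and 53 CPM in saline. It ran from 14 to 21.2 CPM with a median of 15.7 at 19 weeks, all below saline (-1.39, SE 0.21, adjusted p = 4.53e-06). With the combination it was at 25.4, 19.6, 17.3, 22.8 and 30.2 CPM, against 11.7 to 17.7 CPM with a median of 14.7 with isotype, with overlap. It was higher than isotype (0.63, SE 0.22, adjusted p = 0.04) and lower than saline (-0.91, SE 0.24, adjusted p = 0.00272). The first call was lost in 8 of 12 fits without 1 mouse, all but those without isotype replicate 4 or 9 or combination replicate 2 or 3, and in 5 of 9 settings (adjusted p from 0.0191 to 0.428).

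Cyp2e1 (Gene ID 13106, chromosome 7, 140763819 to 140774990), which oxidises ethanol and small solvents, was at 11.1, 9.8, 90.5, 18.5 and 9.01 CPM in saline. The high value is that of replicate 3, the library with squamous and fat markers. At 19 weeks it ran from 1.43 to 14.2 CPM with a median of 3.03, and replicate 7 was the one mouse within the saline range. The log2 fold change was -2.71 (SE 0.54, adjusted p = 0.000192). It was -1.54 without saline replicate 3 (adjusted p = 0.0139) and -3.42 without replicate 7 of 19 weeks. The differences at 11 weeks, with isotype and of the combination from saline were -3.38, -3.13 and -2.59, and became -2.19, -1.94 and -1.40 without that mouse, each still past the threshold. The combination's difference did not pass without the steep libraries (adjusted p from 7.65e-05 to 0.0791 over 9 settings). All 6 fat cell markers were lower at 11 weeks, at 19 weeks and with isotype, and 5 were higher with the combination than with isotype. Their sum had medians of 54.4 CPM in saline (27.9 to 1100), 10.2 at 19 weeks (2.96 to 120), 12.3 with isotype (4.2 to 20) and 41.6 with the combination (19.4 to 516). The part of fat in the Cyp2e1 values was not tested.

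The remaining lower CYP2 genes had low levels. Cyp2ab1 fell at 19 weeks from 3.04 ± 1.56 CPM (SD, n = 5) to 0.497 ± 0.235 CPM (SD, n = 7) (-2.58, SE 0.45, adjusted p = 2.73e-05). Cyp2b23 fell from 3.02 ± 1.07 to 0.443 ± 0.367 CPM (-2.79, SE 0.83, adjusted p = 0.00929). Cyp2b19, an arachidonic acid epoxygenase known from skin, fell from 1.65 ± 0.729 to 0.0508 ± 0.0653 CPM (-4.95, SE 0.87, adjusted p = 3e-05). Cyp2b19, and Cyp2b13 below, reached the level only with the saline libraries, so their falls were partly fixed by selection. With the combination Cyp2b19 was -2.48 against saline, and -3.90 without combination replicate 3.

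Cyp2b13 was at 0.48, 3.63, 3.3, 1.59 and 3.3 CPM in saline and at 0 in all mice of 19 weeks of HDM but replicate 6, at 0.779 CPM. The log2 fold change was -4.36 (SE 1.21, adjusted p = 0.00525). Without that mouse the group had 0 counts, and saline was at least 94.4-fold higher than the 3 counts over the group that a count of 0 allows. At 11 weeks it was -4.30, and -6.04 without replicate 8. With isotype it was -4.61, and -5.53 without isotype replicate 1. Without isotype replicate 9 the isotype differences from saline were -4.17 for Cyp2b19 (from -3.50) and -3.34 for Cyp2b23 (from -2.24). The isotype call of Cyp2b23 (-2.24, SE 0.80, adjusted p = 0.0345) was lost without saline replicate 1 or 2 and without isotype replicate 1, 2, 3, 4 or 6 (adjusted p up to 0.0785).

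Cyp2a5 (Gene ID 13087, chromosome 7, 26835339 to 26843264), which oxidises coumarin and nicotine, was at 34.2, 12.1, 9.12, 27.8 and 13.7 CPM in saline and did not pass against saline at 11 weeks, at 19 weeks, with isotype or with the combination. With the combination it was at 27.6, 38.5, 34.1, 22.3 and 9.9 CPM, against 2.36 to 32.1 CPM with a median of 9.23 with isotype, with overlap. The difference was 1.33 (SE 0.43, adjusted p = 0.0343), and 1.93 without isotype replicate 9. It was lost without combination replicate 1 and without any isotype mouse but replicate 9, and in 3 of 9 settings (adjusted p from 0.014 to 0.102). Of the 33-base windows of its transcript, the length of a read, 56.5% also occur in other genes, Cyp2a4 above all, so reads of these genes cannot be fully separated.

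Cyp2c40, an arachidonic acid hydroxylase, was the CYP2 gene that rose. It had 0 counts in all 5 saline mice. It reached the level in 7 libraries, all mite-exposed and 3 of them of the group with 19 weeks of HDM. Its rise was therefore partly fixed by its selection. At 19 weeks all 7 mice had counts, from 0.0989 to 5.61 CPM with a median of 0.462, and the mean was at least 45.9-fold higher than the 3 counts over the group that a count of 0 allows (edgeR adjusted p = 0.0069). Without replicate 6, the highest, it was at least 23.6-fold higher. At 11 weeks 4 of 6 mice had counts, and the mean was at least 20.7-fold higher, or 8.12-fold without replicate 3 (adjusted p = 0.0453), a call lost without any 1 of the 5 saline mice and without replicate 3, 4 or 9 of that group (adjusted p up to 0.16). With isotype 3 of 7 mice had counts (at least 11.6-fold, adjusted p = 0.0662), and with the combination 0 of 5 did. These bounds cover counting error only. Cyp2c40 shares 83.1% of its windows with Cyp2c69, Cyp2c67 and Cyp2c68, so which of these genes gave the reads is uncertain.

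Cyp2s1, Cyp2b10, Cyp2b13, Cyp2b23, Cyp2b19 and Cyp2a5 lie together on chromosome 7 between 25802469 and 27158564, a stretch with 13 P450 genes of the table. Of these 6 members 4 were lower at 11 weeks and 5 at 19 weeks and with isotype, and none was higher. Without Cyp2b13 and Cyp2b19 these were 2, 3 and 3 of 4. With the combination Cyp2s1, Cyp2b13 and Cyp2a5 were higher than with isotype. Cyp2b13 shares 38.6% of its windows with other genes, Cyp2b10 19.7% and Cyp2b23 12.1%, mostly among the Cyp2b genes, while Cyp2s1 shares 0.

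The single CYP3 member was Cyp3a13 (Gene ID 13113, chromosome 5, 137892933 to 137925610), a drug-oxidising enzyme. It was at 6.29, 5.23, 11.5, 5.79 and 3.7 CPM in saline and ran from 0.883 to 3.26 CPM with a median of 2.62 at 11 weeks, all below saline (-1.42, SE 0.34, adjusted p = 0.00259). At 19 weeks it ran from 1.64 to 4.73 CPM with a median of 2.7, with overlap (-1.17, SE 0.32, adjusted p = 0.00503). It did not pass in the combination against isotype (-0.10, SE 0.33, adjusted p = 0.824). Its isotype call (-1.12, SE 0.32, adjusted p = 0.00832) was lost without saline replicate 3 (adjusted p = 0.0685).

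Among the CYP2J, CYP2U and CYP2R genes, the neighbouring genes Cyp2j9 and Cyp2j6 of chromosome 4 both fell at 19 weeks. Cyp2j9 was at 6.48, 7.65, 9.5, 7.23 and 6.3 CPM in saline and ran from 1.34 to 4.35 CPM with a median of 2.09 at 19 weeks, all below (-1.64, SE 0.30, adjusted p = 6.06e-05). Cyp2j6 was at 16.3, 14.9, 18.1, 17 and 12.9 CPM in saline and ran from 4.47 to 15.8 CPM with a median of 7.81 at 19 weeks, with overlap (-0.81, SE 0.20, adjusted p = 0.00243). With offsets for GC content and length the Cyp2j6 differences at 19 weeks and with isotype were -0.36 and -0.39 and did not pass. Cyp2u1, a fatty acid hydroxylase, was lower with isotype than in saline (-0.82, SE 0.24, adjusted p = 0.0109), and Cyp2r1, a vitamin D 25-hydroxylase, passed in no comparison.

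The CYP4 family held 2 strongly lower genes among 8. Cyp4b1 (Gene ID 13120, chromosome 4, 115624698 to 115647721), which hydroxylates fatty acids and activates lung toxicants such as 4-ipomeanol, was at 462, 577, 512, 587 and 454 CPM in saline. It ran from 56.2 to 177 CPM with a median of 103 at 11 weeks and from 37.4 to 125 CPM with a median of 53.1 at 19 weeks. No mouse of either group reached the saline range, and the log2 fold changes were -2.27 (SE 0.39, adjusted p = 4.08e-05) and -3.13 (SE 0.38, adjusted p = 4.63e-08). The fitted level at 19 weeks was 11.4% of that in saline.

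With the combination Cyp4b1 was at 78.9, 59.6, 161, 154 and 158 CPM, against 31.5 to 116 CPM with a median of 46.4 with isotype. All 5 mice were above the isotype mean, with overlapping ranges, and the difference was 1.21 (SE 0.36, adjusted p = 0.0263). The combination was still below saline (-2.08, SE 0.41, adjusted p = 0.000236). The call against isotype was lost without isotype replicate 1 or 3 and combination replicate 1 or 8 (adjusted p up to 0.0827), and without the steep libraries, where the adjusted p of 0.16 was the highest of 9 settings and the lowest was 0.00373. Without the steep libraries the difference from isotype was 1.07. With anti-IL-33 alone it ran from 37.8 to 246 CPM with a median of 128, and the difference did not pass (1.40, SE 0.35, adjusted p = 0.246).

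Cyp4f15 was at 4.61, 3.96, 2.86, 4.63 and 3.96 CPM in saline and ran from 0.208 to 1.04 CPM with a median of 0.746 at 19 weeks, all below saline (-2.66, SE 0.44, adjusted p = 1.48e-05). With the combination, at 1.3, 2.26, 0.777, 1.15 and 1.24 CPM, it did not pass against isotype (1.05, SE 0.45, adjusted p = 0.0834). It lies with Cyp4f39, Cyp4f17, Cyp4f16 and Cyp4f13 on chromosome 17 between 32452697 and 32947415, and was the only 1 of these 5 called at 11 weeks, at 19 weeks or with isotype against saline.

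Cyp4f17 was at 2.05, 1.93, 3.66, 2.67 and 1.86 CPM with the combination and ran from 3.32 to 4.73 CPM with a median of 3.88 with isotype (-0.70, SE 0.22, adjusted p = 0.0301). That call was lost without isotype replicate 2 and combination replicate 1 or 8, and in 3 of 9 settings (adjusted p from 0.0134 to 0.226). Cyp4v3, a fatty acid hydroxylase, had group medians from 48.7 to 57.4 CPM and passed in no comparison.

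The other CYP4F genes differed between libraries of low and high GC slope. Cyp4f18, a leukotriene B4 hydroxylase of neutrophils, had a median of 53.5 CPM in the 9 steep libraries and 24.9 in the 29 other mite-exposed ones. For Cyp4f16 these were 43.5 and 23.1 CPM, with every steep library (36.4 or more) above every other library (34.2 or less). For Cyp4f13 they were 25.9 and 15.6 CPM. Cyp4f18 and Cyp4f16 were higher with the combination than in saline (1.36, adjusted p = 0.0145, and 0.89, adjusted p = 0.0187). With the GC slope as a covariate the signs turned (-0.10 and -0.01), while without the steep libraries the differences were 0.15 and 0.03. The Cyp4f18 call was lost without combination replicate 1, and that of Cyp4f16 without saline replicate 4 or combination replicate 5 or 8.

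Cyp4f39, which hydroxylates the very long fatty acids of the skin barrier, had medians of 20.7 CPM in steep and 6.64 CPM in the other mite-exposed libraries. Its highest value, 31.7 CPM, was that of saline replicate 3, and replicate 1 of 19 weeks of HDM, the other library with Krt13 above 1000 CPM (1680), had 28.2 CPM. Cyp20a1, an orphan P450 with no established substrate, went the other way, with medians of 6.36 CPM in steep and 14.8 CPM in the other mite-exposed libraries. Its lower call in the combination against saline (-1.03, SE 0.41, adjusted p = 0.0353) was -0.44 without the steep libraries and did not pass. It was also lost without any 1 of saline replicates 1, 2, 4 and 5 and combination replicates 1 and 8. In the combination, with 3 steep libraries of 5, treatment and slope cannot be told apart for these genes.

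**Figure D3:**
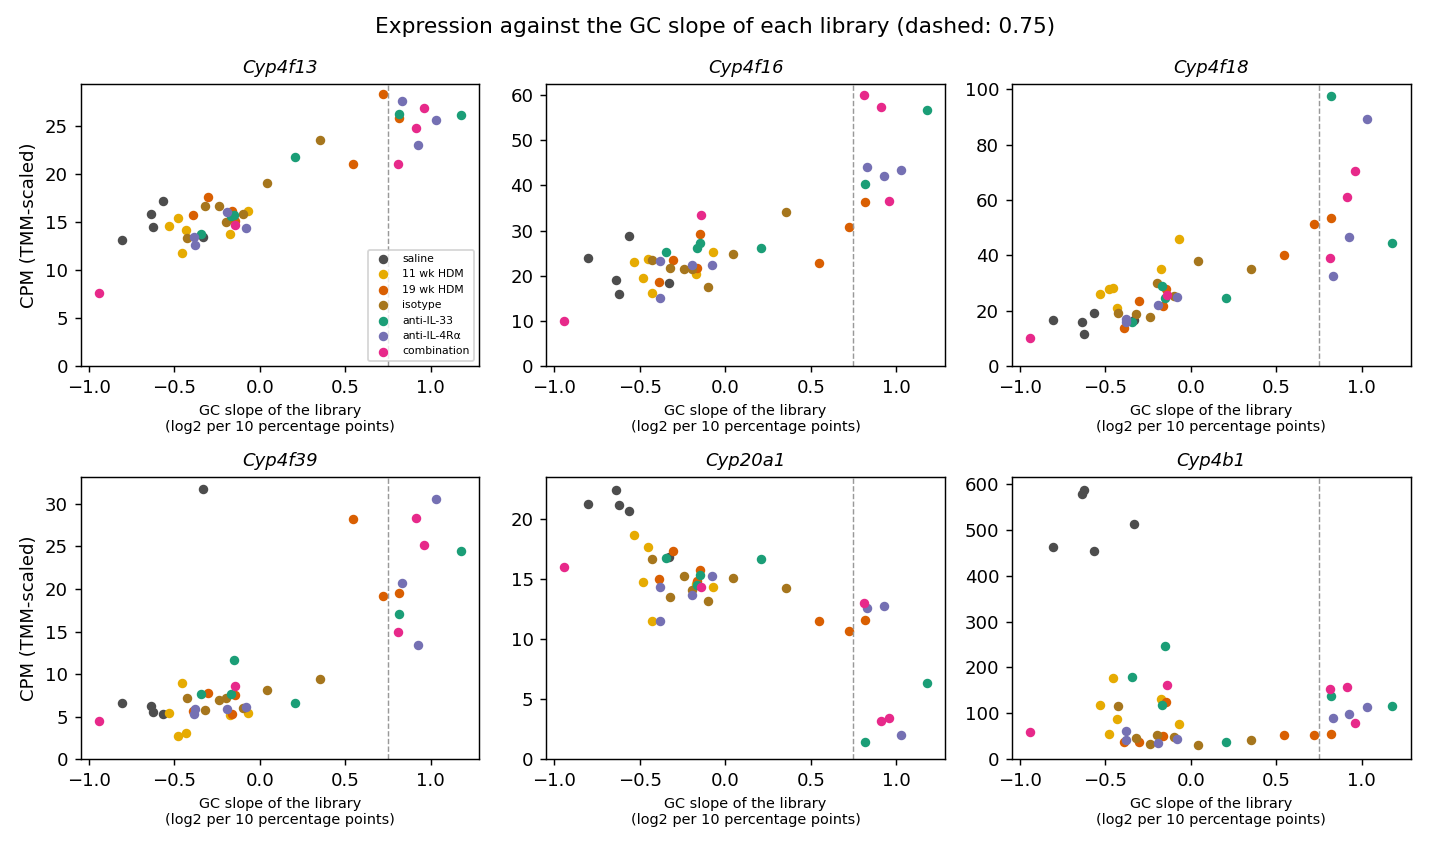
TMM-scaled CPM of 6 P450 genes in 43 libraries (dots, coloured by group) against the GC slope of each library in log2 units per 10 percentage points, with a dashed line at 0.75. Right of the line Cyp4f16 lies above all libraries left of it and Cyp20a1 reaches its lowest values, while Cyp4b1 is highest in the saline mice, on the left.

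The 4 genes of sterol and steroid metabolism went both ways, 2 lower and 2 higher in each comparison of mite exposure with saline. Cyp27a1 (Gene ID 104086, chromosome 1, 74713148 to 74737897), the mitochondrial sterol 27-hydroxylase, was at 15.6, 20, 25.3, 20 and 21.6 CPM in saline. It ran from 6.41 to 10.5 CPM with a median of 8.83 at 19 weeks, all below saline (-1.28, SE 0.20, adjusted p = 7.28e-06). With the combination it was at 8.01, 9.52, 14.2, 14.3 and 13.4 CPM, still below every saline mouse (-0.79, SE 0.22, adjusted p = 0.00519). Cyp39a1 (Gene ID 56050, chromosome 17, 43667372 to 43751431), an oxysterol 7α-hydroxylase, was at 32.4, 26.9, 22.6, 27.7 and 18.2 CPM in saline and ran from 7.08 to 17 CPM with a median of 12.8 at 19 weeks, all below (-1.02, SE 0.23, adjusted p = 0.00065).

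Cyp7b1 (Gene ID 13123, chromosome 3, 18071944 to 18243890), which inactivates 25-hydroxycholesterol, rose. It was at 4.03, 4.19, 5.3, 5.25 and 4.82 CPM in saline. It ran from 9.14 to 16.7 CPM with a median of 13.7 at 11 weeks and from 6.34 to 13.8 CPM with a median of 11.9 at 19 weeks. Every mouse of both groups was above every saline mouse, with log2 fold changes of 1.43 (SE 0.26, adjusted p = 7.6e-05) and 1.15 (SE 0.25, adjusted p = 0.00043). With the combination it was at 8.29, 12.2, 9.69, 6.98 and 5.26 CPM, still higher than saline (0.84, SE 0.26, adjusted p = 0.00919) and not passing against isotype (-0.36, SE 0.24, adjusted p = 0.25). The call against saline was lost in limma voom with sample weights, the highest adjusted p of its 9 settings (5.84e-05 to 0.108).

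Cyp11a1 (Gene ID 13070, chromosome 9, 57998024 to 58027031) cleaves the side chain of cholesterol to make pregnenolone, the start of steroid hormone synthesis, and is known from steroid-producing glands and from some T cells and mast cells. Its promoter is shown because it had the lowest adjusted p of all members in the combination against isotype. RefSeq gives 2 start sites, and the 250 bases before one of them hold AGGTCA, a core motif of nuclear receptors, in capitals.
Cyp11a1, chr9:58014702-58014951, plus strand: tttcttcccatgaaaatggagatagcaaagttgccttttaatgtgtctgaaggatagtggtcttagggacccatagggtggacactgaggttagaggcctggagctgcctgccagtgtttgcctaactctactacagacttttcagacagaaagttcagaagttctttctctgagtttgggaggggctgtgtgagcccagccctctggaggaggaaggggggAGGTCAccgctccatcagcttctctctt
The match began 28 bases before that start site, and the 250 bases before the other start, chr9:57997774-57998023, held 0. On either strand AGGTCA occurred in 14% of all windows and in 4 of 26 member windows (15.4%).

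Cyp11a1 was at 0.336, 0.33, 0.378, 0.933 and 0.825 CPM in saline. It ran from 1.65 to 2.7 CPM with a median of 2.1 at 11 weeks and from 1.29 to 4.42 CPM with a median of 2.46 at 19 weeks, without overlap with saline. The log2 fold changes were 1.89 (SE 0.46, adjusted p = 0.00345) and 2.23 (SE 0.46, adjusted p = 0.000257). Isotype mice ran from 0.91 to 4.31 CPM with a median of 2.23, and the combination mice were at 0.559, 0.2, 0.503, 0.364 and 0.696 CPM. All 5 lay below all 7, and the difference was -2.31 (SE 0.48, adjusted p = 0.00549). Against saline the combination differed by -0.30 (SE 0.51, adjusted p = 0.63). Of the 9 calls of this comparison it was the 1 kept in all 9 other settings (adjusted p from 0.000242 to 0.0337) and in all 12 fits without 1 mouse.

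With anti-IL-4Rα Cyp11a1 ran from 0.457 to 1.98 CPM with a median of 1.37 (-0.81, SE 0.39, adjusted p = 0.345), and with anti-IL-33 from 0.518 to 5.16 CPM with a median of 1.14 (-0.43, SE 0.40, adjusted p = 0.491), neither passing against isotype. The combination did not pass against anti-IL-33 (-1.88, SE 0.49, adjusted p = 0.321) or anti-IL-4Rα (-1.50, SE 0.48, adjusted p = 0.222). Of 6 mast cell markers 1, Mcpt1, was higher in each comparison of mite exposure with saline. There 8.65%, 19.2% and 13% of all genes were higher. In the combination against isotype 0 of the 6 markers changed. Their summed level had medians of 5.48 CPM in saline (4.41 to 36.9), 10 at 19 weeks (3.75 to 81.5), 7.39 with isotype (2.28 to 24.8) and 6.72 with the combination (1.87 to 27.2). Replicate 7 of anti-IL-33, the highest library for Cyp11a1, had Mcpt1 at 34.4 CPM. Other libraries differed, as isotype replicate 2 had Cyp11a1 at 4.31 CPM and Mcpt1 at 1.7 CPM. Replicate 4 of 11 weeks of HDM had Mcpt1 at 20.1 CPM and Cyp11a1 at 2.21 CPM. The part of mast cells in the Cyp11a1 differences was not tested.

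The combination against isotype asks what blocking both cytokine routes does under continued mite exposure. Of the 30 genes 6 were higher and 3 lower, that is 20% and 10%, against 12.6% and 6.32% of all genes. The higher ones were Cyp2b13, Cyp1a1, Cyp2s1, Cyp2a5, Cyp4b1 and Cyp2d22, and the lower ones Cyp11a1, Cyp1b1 and Cyp4f17. The median log2 fold change was 0.45, beside 0.04 for all genes, and 22 differences were positive and 8 negative. Without Cyp2b13 and Cyp2b19, members through their saline values, 5 of 28 were higher and 3 lower, with a median of 0.42. Cyp2b13, at 0.932, 6.92, 0.914, 0 and 0 CPM in the combination, differed by 4.12 (SE 1.22, adjusted p = 0.0259), but by 2.21 without combination replicate 2 (adjusted p = 0.143), and it was also lost without combination replicate 1. Without isotype replicate 1 it was 5.04. Over its 9 other settings the adjusted p ran from 0.0138 to 0.755.

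The count of 9 became 2 without combination replicate 1, 4 without combination replicate 8 or isotype replicate 1 or 3, and 5 without isotype replicate 2 or 8. It was 2 without the steep libraries and 4 with the 2 groups alone in the model. The shares of all genes called in these fits are not given, so the smaller counts are not read as particular to P450 genes.

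The comparison of 19 weeks of HDM with saline and that of the combination with isotype share no mice. Of the 16 members lower at 19 weeks, 5 were higher with the combination, 15 had a positive difference there and 1, Cyp3a13, a negative one, and 11 were still lower than in saline. The 16 include Cyp2b13 and Cyp2b19, whose fall was partly fixed by their selection, and Cyp2b13 was 1 of the 5. Over all genes 278 of 2490 that were lower at 19 weeks were higher with the combination (11.2%). For the 15 positive differences and the 11 still lower the same shares over all genes are not given. Those counts are therefore not read as particular to P450 genes. Of the 3 members higher at 19 weeks 1, Cyp11a1, was lower with the combination, and all 3 had negative differences. The 3 include Cyp2c40, whose rise was partly fixed by its selection. Against saline 13 members were lower with the combination and 3 higher, against 20.3% and 27.8% of all genes. Without Cyp2b13 and Cyp2b19 these were 12 and 3 of 28. Without the steep libraries 4 of the 30 were lower and 2 higher, and 7 and 2 when the GC slope was a covariate. The shares of all genes called in these settings are not given.

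**Figure D4:**
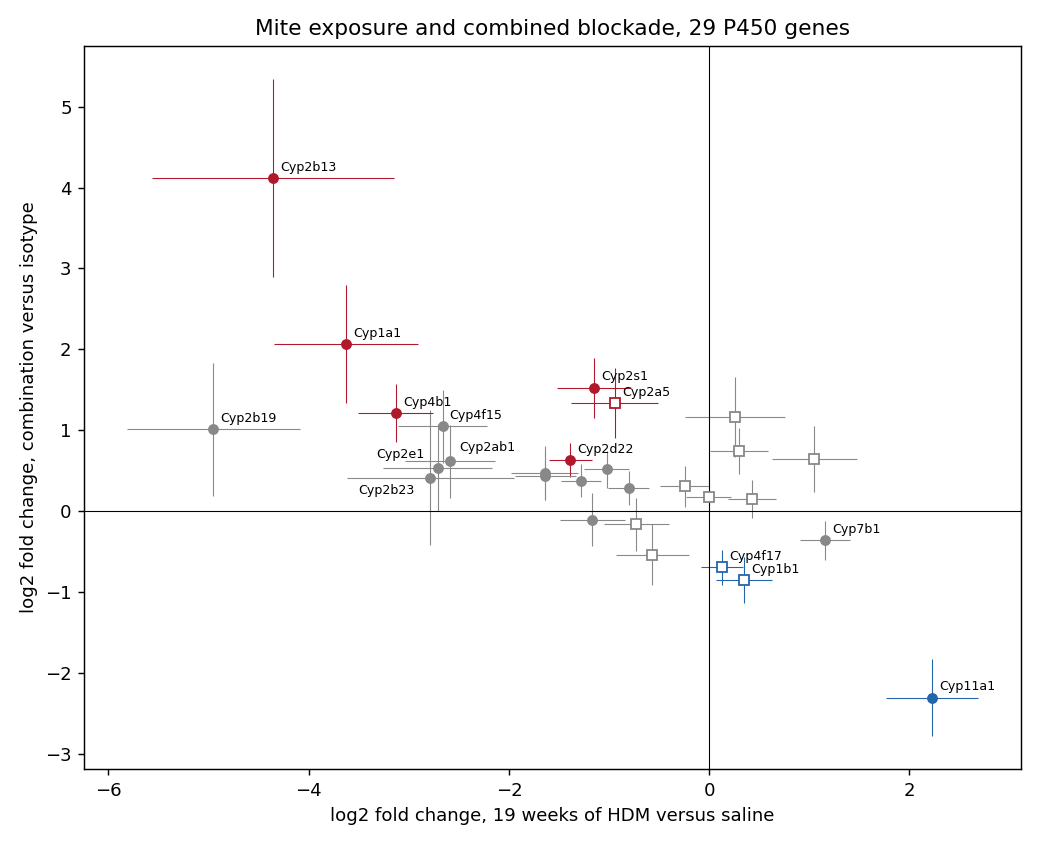
Log2 fold change of 29 P450 genes for 19 weeks of HDM against saline (horizontal axis) and for the combination against isotype (vertical axis), with bars of 1 SE. Filled circles mark genes called at 19 weeks and open squares the others, with red for higher and blue for lower with the combination, and Cyp2c40 is left out. Of 16 genes lower at 19 weeks 15 lie above the horizontal line, and Cyp11a1 lies at the lower right. The share with a positive difference among all genes lower at 19 weeks is not given.

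Neither antibody alone gave a member call in edgeR, where 0% of all genes were higher or lower than with isotype in both comparisons. With anti-IL-33 6 of the 30 members had an unadjusted edgeR p under 0.05, beside 2878 of all 15979 genes. The lowest adjusted p was 0.246 (Cyp4b1, Cyp1a1, Cyp2s1 and Cyp2d22). DESeq2 called 1 member there and limma voom with sample weights 6, without a count over all genes given. The edgeR count was 2 without isotype replicate 9 or without anti-IL-33 replicate 7. With anti-IL-4Rα 3 members had an unadjusted p under 0.05, beside 2242 of all genes. The lowest adjusted p was 0.309 (Cyp2b13), and DESeq2 and limma voom called 0 members. Cyp4b1, Cyp2s1 and Cyp2d22 had means of 139, 84.5 and 22.1 CPM with anti-IL-33, and of 69.2, 54.6 and 16.8 CPM with anti-IL-4Rα.

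The combination gave 0 member calls against anti-IL-33, where 0% of all genes were higher and 0.0438% lower, and 0 against anti-IL-4Rα, where 0.0188% were higher and 0.1% lower (edgeR). At an unadjusted edgeR p under 0.05 there were 2 and 10 of 30 members, beside 778 and 1707 of all 15979 genes. DESeq2 called 0 members in both, and limma voom called 4 and 9. Counts over all genes in limma voom are not given, so the 4 and 9 are not read as particular to P450 genes. The 19 weeks of HDM gave 0 against 11 weeks (0.0876% of all genes higher and 0.0188% lower). There 6 members and 2296 of all genes had an unadjusted p under 0.05. Cyp1a1 had the lowest adjusted p of the members (-2.37, SE 0.69, adjusted p = 0.183). Isotype gave 0 against 19 weeks of HDM alone (0% of all genes higher and 0% lower), with 1 member and 341 of all genes at an unadjusted p under 0.05. In these last 2 comparisons DESeq2 and limma voom also called 0 members.

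Other enzymes of xenobiotic metabolism also fell. Of 22 tested, 13 were lower and 0 higher at 11 weeks, 13 and 1 at 19 weeks, and 12 and 0 with isotype. Of all genes, 6.74%, 15.6% and 12.4% were lower there and 8.65%, 19.2% and 13% higher. At 19 weeks Sult1d1, a sulfotransferase, differed by -4.02 and Gsta3, a glutathione transferase, by -2.94. With the combination 7 were higher and 1 lower than with isotype, against 12.6% and 6.32% of all genes. Sult1d1 (2.43, edgeR adjusted p = 0.0279) and Gsta3 (1.86, edgeR adjusted p = 0.0221) were among the 7. The lower one was Aox3, an aldehyde oxidase (-1.74).

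Genes that supply P450 enzymes with electrons and heme went both ways. Of 13, 2 were higher and 2 lower at 11 weeks, and 4 higher and 2 lower at 19 weeks and with isotype. Of all genes 8.65% were higher and 6.74% lower at 11 weeks, 19.2% and 15.6% at 19 weeks, and 13% and 12.4% with isotype. Por, the reductase of the microsomal P450s, differed by 0.27 at 19 weeks (adjusted p = 0.673) and was higher with the combination than with isotype (1.61, adjusted p = 0.024). Hmox1, which breaks down heme, rose at 19 weeks (2.40, adjusted p = 1.94e-08) and was lower with the combination (-1.21, adjusted p = 0.00702). Pgrmc1, a heme-binding partner of P450s, fell at 19 weeks (-1.47), as did Fech, the last enzyme of heme synthesis (-0.60). With the combination 2 of the 13 were higher than with isotype and 2 lower, against 12.6% and 6.32% of all genes.

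Markers of several cell types moved in the same comparisons. Of all genes, 6.74% were lower than in saline at 11 weeks, 15.6% at 19 weeks and 12.4% with isotype. The shares higher were 8.65%, 19.2% and 13%. In the combination against isotype 12.6% of all genes were higher and 6.32% lower. These shares are the background for all lists below, and some counts lie near them. Of 10 club cell markers 5 were lower at 11 weeks, 6 at 19 weeks and 6 with isotype, 0 were higher, and 6 were higher with the combination than with isotype. Their sum had a median of 15300 (9960 to 18400) CPM in saline, 5840 (3120 to 7540) at 11 weeks, 3470 (3210 to 6190) at 19 weeks and 3660 (2470 to 6230) with isotype. It was 7670 (2150 to 21900) CPM with anti-IL-33, 4730 (3370 to 18900) with anti-IL-4Rα and 10800 (5490 to 12300) with the combination, and 0 of the 10 markers were at 0 in any group. Scgb1a1, the main club cell secretoglobin, fell at 19 weeks (-2.10) and was higher with the combination than with isotype (1.42, adjusted p = 0.0259). Of 10 ciliated cell markers 1, 6 and 2 were lower in the 3 comparisons with saline, and 3 were higher with the combination than with isotype. Of 8 alveolar type 2 markers 1, 6 and 2 were higher and 0 lower. Foxj1, a ciliated cell marker, was at 599, 152 and 268 CPM in the steep combination libraries and at 43.8 and 73.3 CPM in the others. Calls of list genes are given for the main fit alone, without the GC settings or fits without 1 mouse.

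Other lists also moved. Of 9 goblet cell markers 8, 9 and 9 were higher in the 3 comparisons with saline, and 3 were higher and 2 lower with the combination than with isotype. Their sum had a median of 28.6 (18.6 to 72.7) CPM in saline, 897 (621 to 1240) at 19 weeks, 751 (516 to 1410) with isotype and 557 (393 to 784) with the combination. Of 8 interstitial macrophage markers 6, 8 and 8 were higher, and 1 was lower with the combination than with isotype. Of 9 fibroblast markers 6, 7 and 6 were lower and 0, 1 and 1 higher, and 3 were higher with the combination. Their sum had a median of 3290 (2880 to 3740) CPM in saline, 1720 (1330 to 3130) at 19 weeks, 1570 (1320 to 1720) with isotype and 1870 (1640 to 2850) with the combination. Of 8 alveolar type 1 markers 4 were lower in each comparison with saline, and 3 were higher and 1 lower with the combination. Of 9 endothelial markers 2, 4 and 4 were lower, and 3 were higher with the combination. The part of these cells in the P450 differences was not tested.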

How the data were processed

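The deposited table holds expected counts per gene in 43 libraries of mouse whole lung RNA (stranded mRNA kit, 500 ng, 33-cycle single reads, per the labels' protocols). The authors' genome build was mm10, per the submitters' processing notes. The aligner and counter were not given in the sources used here. Estimated counts as deposited by the authors were rounded to whole numbers. Symbols were matched by NCBI Gene ID (24375 of 24475 genes). Groups came from sample titles.

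In R 4.3.3, edgeR 4.0.16 (TMM factors, filterByExpr, quasi-likelihood F-test, 2-sided) was fitted to all 43 libraries with a mean per group (15979 genes, 36 residual degrees of freedom), with Benjamini-Hochberg adjustment over all genes and calls at adjusted p under 0.05. Levels are TMM-scaled CPM, per kilobase where genes are compared. The fit was tested on simulated data. Alternatives were DESeq2 1.42.0 and its size factors, limma 3.58.1 voom with sample weights, no low-count filter, the compared groups alone, a replicate block, the GC slope as covariate, GC and length offsets, leaving out the 9 steep libraries, and leaving out each mouse. The members and lists were chosen with earlier results of these data known. Named genes are the 8 highest per kilobase, up to 8 called members per direction and comparison by absolute log2 fold change, the member with the lowest adjusted p where none was called, members as part of a role group, genes of the lists as examples, and the 3 nearest the level on each side. The labels do not pair mice across groups. Only for the combination and anti-IL-33 did every same-numbered pair have r over 0.1 (0.5 to 0.647 over 3 pairs). In 2 of these 3 pairs the same-numbered mouse was also the best match.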

Additional observations from a re-analysis of the deposited data

Results flagged for a closer look

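Within each group, the highest and the lowest mouse were compared with the others on the log2 scale, and 12 of 154 groups of values held a mouse far from the rest. Chance flags about 1 in 20 groups.

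Of the CYP4 genes, Cyp4b1 was 125 CPM in replicate 9 of 19 weeks of HDM (others 37.4 to 55.7) and 116 CPM in isotype replicate 9 (others 31.5 to 53.4). These mice also had the highest Scgb1a1 of their groups, 5150 and 5460 CPM. Cyp4f15 was 0.184 CPM in anti-IL-33 replicate 7 (others 1.07 to 2.32), and Cyp4f17 was 1.46 CPM in anti-IL-33 replicate 4 (others 3.04 to 4.61).

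Of the CYP2 genes, Cyp2e1 was 14.2 CPM in replicate 7 of 19 weeks of HDM (others 1.43 to 3.45), where Adipoq was 6.29 CPM. Cyp2b13 was 0.779 CPM in replicate 6 of that group (others 0). Cyp2b10 was 29.1 CPM in isotype replicate 3 (others 46.6 to 61.8), and Cyp2s1 was 69.9 CPM in combination replicate 3 (others 109 to 128). Cyp2ab1 was 0.0773 CPM in combination replicate 8 (others 0.839 to 1.66), and Cyp2b23 was 0 in replicate 4 of 11 weeks of HDM (others 0.744 to 1.79).

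Cyp3a13 was 0.883 CPM in replicate 9 of 11 weeks of HDM (others 2.02 to 3.26). Cyp11a1 was 0.457 CPM in anti-IL-4Rα replicate 6 (others 1.07 to 1.98).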

How the results depend on the processing

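The counts of called P450 genes at 11 weeks, at 19 weeks and with isotype against saline stayed within 1.5 times under every alternative and ranged over 14 to 16, 19 to 21 and 18 to 20 when 1 mouse was left out. Those of the combination did not. Against isotype, 9 genes became 4 with the compared groups alone, 4 with the replicate block, 2 without the steep libraries, and 2 to 10 without 1 mouse. Against saline, 16 became 9 with the GC slope in the model, 6 without the steep libraries and 12 to 19 without 1 mouse. From 0, anti-IL-33 against isotype became 1 in DESeq2, 6 in limma voom and 0 to 2 without 1 mouse, the combination against anti-IL-33 became 4 in limma voom, and against anti-IL-4Rα 9 in limma voom and 1 with the GC slope in the model. For the combination against saline, Cyp4f16 and Cyp4f18 turned to -0.008335 and -0.1035 with the GC slope in the model. The cause was not tested. The shares of all genes called in these alternatives are not given beside the member counts. No label pairs mice by replicate number. In the comparisons other than the combination against anti-IL-33, same-numbered mice gave r from -0.696 to 0.543. The block kept 0 calls for the combination against anti-IL-33. The level rule kept 30 genes with TMM scaling, 36 at 0.5 CPM and 25 at 2 CPM. Genes near 1 CPM rest on few counts per mouse.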

Other observations

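Of the 62 P450 genes below the level, 5 passed the filter on low counts. Cyp21a1, the steroid 21-hydroxylase, was higher at 19 weeks than in saline (log2 fold change 2.49, SE 0.82, edgeR adjusted p = 0.0177), with means of 0.45 and 0.0731 CPM. Cyp2c23, an arachidonic acid epoxygenase, was lower (-2.80, edgeR adjusted p = 0.000103), with means of 0.122 and 0.823 CPM. Both genes lie near the limit of what these depths resolve.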
